A study of Drosophila melanogaster with 3 samples.

Results

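The genes described here encode the factors that hold RNA polymerase II just after it has started transcription and those that release it. They are 10 genes of 13968 protein-coding genes, chosen by name: Nelf-A, NELF-B, TH1 and Nelf-E of the negative elongation factor (NELF), Spt5 and spt4 of the DRB sensitivity-inducing factor (DSIF), Cdk9 and CycT of the positive elongation factor P-TEFb, and Hexim and Larp7 of the 7SK particle. All 10 were found in the Ensembl annotation, with Nelf-B listed there as NELF-B and HEXIM as Hexim. The measurement was chromatin immunoprecipitation with sequencing (ChIP-seq) of CG7839, annotated as Noc1, a protein known from yeast for its part in assembling the large ribosomal subunit. The chromatin came from whole embryos of both sexes, aged 0 to 24 h, of a transgenic line with GFP at the C-terminus of CG7839, and an antibody to GFP was used. All 3 biological replicates belong to 1 group and to 1 line, and no other genotype or treatment was labelled, so there was no comparison between groups.

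A summit is the base at which a deposited peak is highest, and a promoter here reaches 500 bp to each side of a gene's transcript starts. The authors deposited 30000 summits for each replicate, 30000 called from the pooled reads, and 8188 in a list thresholded by irreproducible discovery rate (the IDR list). The 8188 IDR peaks are those of largest signal value in the pooled list, so a gene's IDR call is no independent repeat of its pooled call. The signal value has no stated scale and served only to rank peaks within a list, with rank 1 the strongest. The deposited files used here hold no read totals, so depth per replicate is unknown. Whole embryos of this age span mix cell types and stages, and a summit does not show in which of them the protein was present. Peaks report positions in chromatin and not RNA, so the embryo label could not be checked against markers. The genes were proposed with their summits known, so no value below is a test of the group.

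Soon after initiation, RNA polymerase II stops a short way into the gene, where NELF and DSIF keep it paused. P-TEFb, made of the kinase Cdk9 and its cyclin CycT, phosphorylates NELF, DSIF and the polymerase tail, and elongation resumes. The 7SK RNA, with HEXIM and a La-related protein, keeps part of the P-TEFb in an inactive store. Pausing was first worked out on the heat shock genes of Drosophila.

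The stretches upstream of 6 of the genes are shown here, since the IDR summits of Nelf-E, TH1 and Nelf-A lay between opposed starts and 5 of the 6 stretches hold a DRE. Each stretch shown is reference sequence of the RefSeq Release 6 assembly (dm6), written 5′ to 3′ on the strand of the named elongation gene and ending at the base before its start. Capitals mark the DRE, the palindrome TATCGATA bound by the transcription factor DREF. The first 3 stretches fill the whole space between the opposed starts and hold an IDR summit, at bases 35, 155 and 38. The others are the 200 bases upstream of NELF-B, where the stronger of the paired summits of replicates 1 and 3 lay, and the 120 bases upstream of CycT and of Larp7, which held no IDR summit.
RpL14 to Nelf-E, chr3L:8600880-8601005, minus strand: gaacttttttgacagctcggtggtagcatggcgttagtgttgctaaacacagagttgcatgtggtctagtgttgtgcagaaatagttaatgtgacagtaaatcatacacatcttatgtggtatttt
mei-41 to TH1, chrX:16391439-16391697, minus strand: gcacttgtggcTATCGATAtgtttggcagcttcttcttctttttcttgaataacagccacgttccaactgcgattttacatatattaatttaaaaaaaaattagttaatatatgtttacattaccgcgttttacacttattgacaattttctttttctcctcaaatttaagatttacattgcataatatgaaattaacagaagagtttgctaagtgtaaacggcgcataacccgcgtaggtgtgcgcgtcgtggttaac
CG3337 to Nelf-A, chr3R:21223585-21223703, plus strand: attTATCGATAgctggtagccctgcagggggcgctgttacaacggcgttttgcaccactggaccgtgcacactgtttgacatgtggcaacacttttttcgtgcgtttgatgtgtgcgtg
Upstream of NELF-B, chrX:7728362-7728561, minus strand: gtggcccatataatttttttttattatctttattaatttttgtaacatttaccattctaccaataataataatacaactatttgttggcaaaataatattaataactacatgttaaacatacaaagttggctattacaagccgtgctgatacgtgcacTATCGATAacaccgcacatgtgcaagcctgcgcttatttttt
Upstream of CycT, chr3L:17557789-17557908, minus strand: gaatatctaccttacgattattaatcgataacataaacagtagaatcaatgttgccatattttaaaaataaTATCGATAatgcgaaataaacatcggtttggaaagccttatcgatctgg
Upstream of Larp7, chrX:9243697-9243816, plus strand: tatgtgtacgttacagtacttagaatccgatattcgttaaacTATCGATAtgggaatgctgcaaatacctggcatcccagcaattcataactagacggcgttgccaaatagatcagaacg

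In the IDR list 4 of the 10 genes had a promoter summit, against 22.8% of all protein-coding genes. They were TH1, Nelf-E and Nelf-A of NELF and spt4 of DSIF, so 3 of 4 NELF genes, 1 of 2 DSIF genes and none of the 4 genes of P-TEFb and the 7SK particle. The pooled list gave the same 4 genes, against 37.6% of all protein-coding genes, which is near the share of the 10. Among the 8188 strongest peaks of each replicate, 4, 5 and 5 of the 10 genes had a promoter summit in replicates 1, 2 and 3, against 22.8%, 25.1% and 26.4% of all. Only TH1, Nelf-E and spt4 did so in all 3 replicates, against 17.9% of all protein-coding genes. In the full replicate lists the counts were 4, 5 and 7 of 10, against 37.8%, 43.5% and 46.4%. The same 3 genes had a promoter summit in all 3 full lists (29.4% of all genes), 6 genes in 2 or more (42.5%), and 7 in at least 1 (55.7%). The full lists hold weak peaks too. CycT reached the count of 2 or more through a replicate 3 summit with a deposited −log10 q of 0.76. Hexim was counted only through replicate 3 summits, with values of 1.61 and 0.47. Spt5, Cdk9 and Larp7 had no promoter summit in any of the 5 lists, as was so for 43.8% of all genes.

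**Figure D1:**
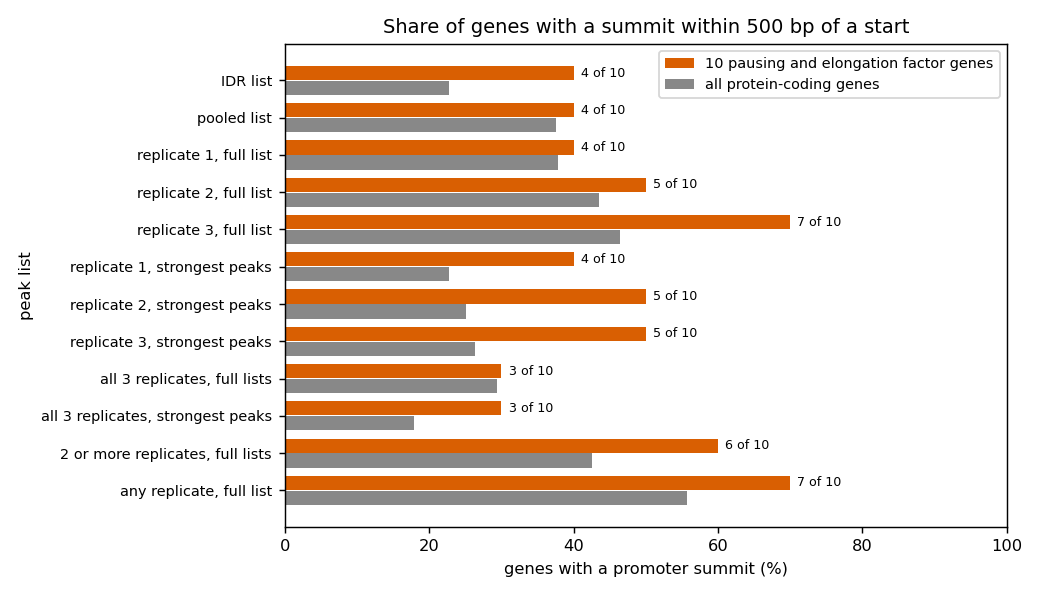
Percent of genes with a summit within 500 bp of a transcript start in each peak list, for the 10 genes (orange, with counts) and all protein-coding genes (grey). "Strongest peaks" are the 8188 of largest signal value. The 10 genes reach 40% in the IDR list against 22.8%, and 30% against 29.4% for all 3 full replicate lists.

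TH1, the Drosophila NELF-D subunit (FBgn0010416, X, start 16388820, end 16391438, minus strand), had the strongest summit of the group. It ranked 251, 444 and 285 in replicates 1, 2 and 3 (mean 327 ± 103, SD, n = 3) and 306 in the IDR list (summit 16391543, interval 16391335 to 16391768). All 3 replicates placed it among the first 1.48% of their peaks. By strongest IDR promoter summit TH1 stood in place 266 of 3187 protein-coding genes with one. The summits lay 104, 123 and 110 bp upstream of the start, a range of 19 bp, where the median range over 2938 genes with an IDR summit and a summit in all 3 replicates was 37.5 bp (quartiles 18 and 71). The spread of its log10 rank, 0.13, equalled the upper quartile of those genes.

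That summit is shared. mei-41, which encodes the fly ATR checkpoint kinase, starts 260 bp away on the opposite strand, and the IDR summit lay 155 bp upstream of it and 105 bp upstream of TH1. TH1 was the nearer start in the IDR list and in all 3 replicates.

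Nelf-E, which encodes the RNA-binding subunit (FBgn0017430, 3L, start 8599442, end 8600879, minus strand), was next. Its summit ranked 716, 621 and 917 in replicates 1, 2 and 3 (mean 751 ± 151, SD, n = 3) and 715 in the IDR list (summit 8600971). The replicates' summits lay 99, 108 and 92 bp upstream, a range of 16 bp, the narrowest of the 3 genes with a summit in every replicate. The log10 rank SD of 0.0857 was close to the median of 0.0877 over the 2938 genes. RpL14, for a protein of the large ribosomal subunit, starts 127 bp away on the opposite strand, and the same summit lay 28, 19 and 35 bp upstream of RpL14. RpL14 was therefore the nearer start in all 3 replicates and in the IDR list. In replicates 1 and 2 the summit was also 495 and 486 bp upstream of snoRNA:U49:66Da, just inside the 500-bp limit. Replicate 3 had a second summit 165 bp downstream of the RpL14 start, at rank 18276.

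Nelf-A (FBgn0038872, 3R, start 21223704, end 21229512, plus strand) had an IDR summit of middling rank, 4553, 82 bp upstream (summit 21223622), in an interval of 167 bp. Replicate 2 had it at rank 4243, 100 bp upstream, and replicate 3 at rank 5118, 63 bp upstream. Replicate 1 had no summit within 500 bp, and its nearest lay 4673 bp upstream, 46 bp before the start of Oga. Of the 3187 protein-coding genes with an IDR promoter summit, 7.81% likewise lacked a promoter summit in the full list of at least 1 replicate. CG3337 starts 120 bp away on the opposite strand and was the nearer start, with the IDR summit 38 bp upstream of it. Replicates 2 and 3 each had a second, weaker summit in the Nelf-A 5′ UTR, 103 and 139 bp downstream of the start, at ranks 13758 and 22827. The nearest summit beyond the window was in replicate 3 at rank 5826, 842 bp downstream of the Nelf-A start and 43 bp downstream of that of lncRNA:CR44265, which runs antisense to Nelf-A.

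NELF-B (FBgn0027553, X, start 7725996, end 7728361, minus strand) showed a different pattern. Replicate 1 placed a summit 128 bp upstream at rank 3130, and replicate 3 placed one 134 bp upstream at rank 4178. Both replicates had a second summit near CG12155, 327 and 333 bp upstream of NELF-B, at ranks 6626 and 7343. CG12155 starts 394 bp from NELF-B on the opposite strand, and these second summits lay 67 and 61 bp upstream of it. Replicate 2, the pooled list and the IDR list had no summit within 500 bp, and their nearest lay 6211 bp (replicate 2) and 6246 bp (both others) upstream, in the 5′ UTR of Pdp. Of 3415 protein-coding genes with a promoter summit among the strongest peaks of 2 or more replicates, 10.1% had none in the pooled list, and NELF-B was the only one of the 5 qualifying genes of the group among them. All 4 NELF genes thus had a promoter summit among the strongest peaks of at least 2 replicates, as did 24.4% of all protein-coding genes. Other cuts gave fewer: 3 in the IDR list and 2 among the strongest peaks of all 3 replicates. With each IDR summit given to its nearest start only, TH1 alone of the 4 kept one. All 4 also have a divergent protein-coding start within 500 bp. Over all protein-coding genes, 37.4% with such a start had an IDR promoter summit, against 17.3% without.

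spt4, the small DSIF subunit (FBgn0028683, 2R, start 12633589, end 12634172, plus strand), was the only gene of the group with an IDR summit that no other gene shared. The summit ranked 6088, 5569 and 5457 in replicates 1, 2 and 3 (mean 5705 ± 337, SD, n = 3) and 5394 in the IDR list, 118 bp upstream (summit 12633471). Its log10 rank SD of 0.0253 was below the lower quartile of 0.0559 over the 2938 genes. In position the replicates differed more, with summits 127, 77 and 109 bp upstream. Among 4108 other protein-coding genes with a promoter summit in all 3 replicates, those with ranks closest to spt4 were CG34305 (6245, 5587 and 5296), kuz (6454, 5548 and 5131) and E2f1 (6835, 5434 and 5434), by a mean absolute log10 rank difference over the 3 replicates of 0.0085, 0.018 and 0.021.

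Spt5, the large DSIF subunit (FBgn0040273, 2R, start 19437483, end 19441898, plus strand), had no summit near its start. The nearest in every list lay 4808 to 4816 bp downstream, beyond the end of the gene and 43 to 51 bp upstream of RpL11, another ribosomal protein gene. That summit ranked 1694, 1417 and 2080 in the replicates. Spt5 has a divergent neighbour, the focal adhesion kinase gene Fak, whose nearest start is 224 bp away.

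**Figure D2:**
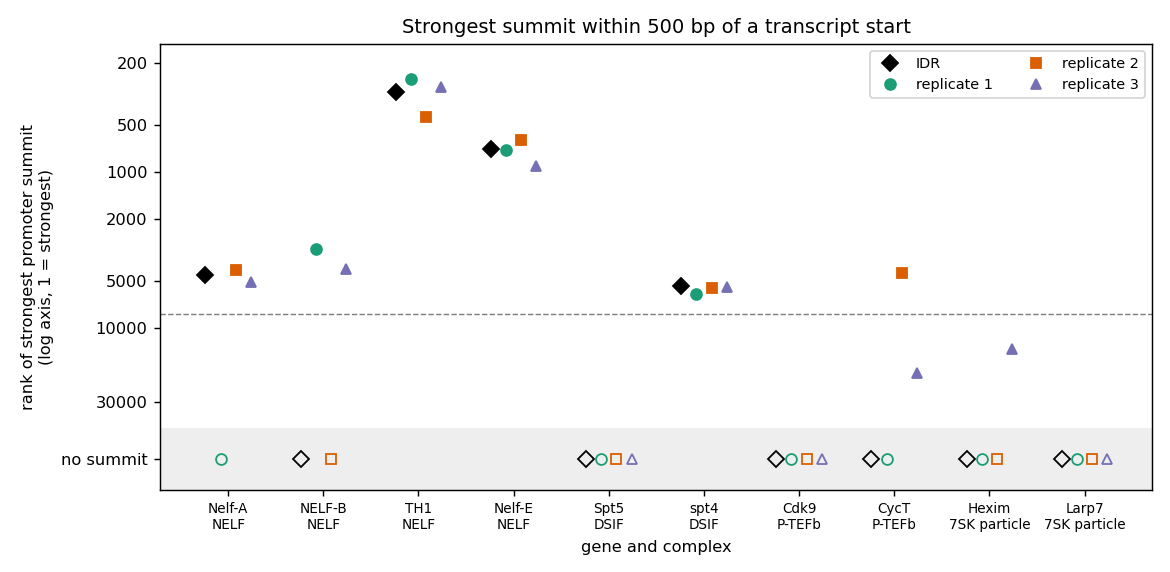
Rank of the strongest summit within 500 bp of a transcript start (log axis, rank 1 strongest, reversed) for the 10 genes in the IDR list and each replicate. The dashed line is rank 8188, and open symbols in the grey band mark lists with no summit. TH1 and Nelf-E sit above rank 1000 in every list, and spt4 lies between 5394 and 6088.

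The P-TEFb genes had no IDR or pooled promoter summit. CycT (FBgn0025455, 3L, start 17551004, end 17557788, minus strand) has 2 annotated starts and no divergent neighbour. Replicate 2 placed a summit 120 bp downstream of the outer start, in the 5′ UTR, at rank 4480. Replicate 3 had only a weak one, 230 bp upstream at rank 19431, and replicate 1 had none. The replicate summits thus differed by 350 bp in position and did not mark 1 common place. In the IDR list the nearest summit lay 5523 bp upstream, in an intron of the ecdysone-induced gene Eip74EF. Cdk9 (FBgn0019949, 2R, start 22636063, end 22637727, minus strand) starts only 43 bp from bonsai, a mitochondrial ribosomal protein gene on the opposite strand. Its nearest summits in replicates 1, 2 and 3 lay 8895, 3721 and 2546 bp upstream. Those of replicates 1 and 3 were weak, at ranks 20644 and 14069. That of replicate 2 ranked 6363 and was 29 bp upstream of RpS24. In the IDR list the nearest summit lay 11083 bp upstream of Cdk9.

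The protein genes of the 7SK particle also lacked IDR and pooled promoter summits. Hexim, the inhibitor of P-TEFb (FBgn0038251, 3R, start 14659438, end 14661177, plus strand), had summits in replicate 3 alone, 13 and 225 bp downstream at ranks 13721 and 23771. Its nearest IDR summit lay 2230 bp upstream, 239 bp before CG3505. Larp7 (FBgn0260771, X, start 9243817, end 9245925, plus strand) has a divergent neighbour 350 bp away, mxc, a gene for a histone locus body protein. No list had a summit within 500 bp of Larp7. In replicates 1, 2 and 3 the nearest ranked 12302, 10201 and 23702. They lay 3357 to 3483 bp downstream, within 78 bp of the start of amx. The nearest IDR summit lay 4434 bp downstream, in an intron of Dsor1.

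The annotation names snRNA:7SKa and snRNA:7SKb as genes for 7SK RNA. Peaks do not show which of them supplies the particle. snRNA:7SKa (3R, start 7474553, end 7474996, minus strand) had a summit inside its 444-bp gene in every list, 251 bp from its start in the IDR list. This summit ranked 5013, 3422 and 4492 in replicates 1, 2 and 3 and 4129 in the IDR list, and no other start lay within 500 bp of the IDR summit. A much stronger summit lay 1046 bp downstream of that start, nearer to CG1142, and ranked 58, 70 and 71 in the replicates and 62 in the IDR list. snRNA:7SKb (3R, start 23432869, end 23433272, plus strand) had no promoter summit in the IDR or pooled list. Replicate 1 alone had one inside the gene, at rank 27419.

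**Figure D3:**
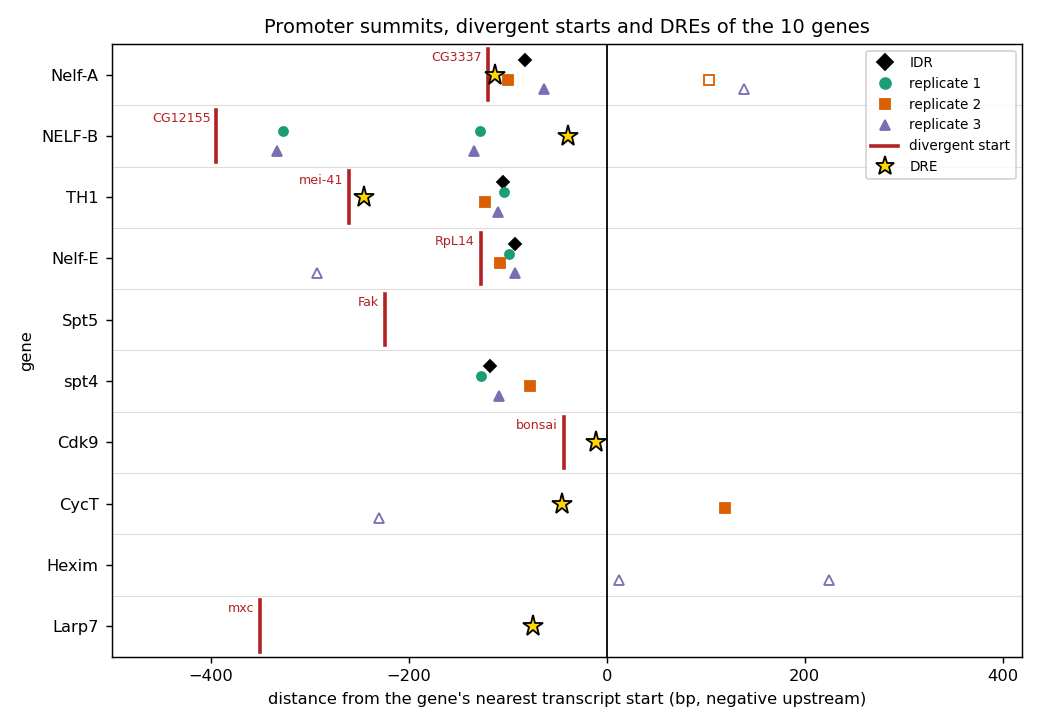
Distance of each promoter summit from the nearest transcript start of its gene (bp, negative upstream), for the IDR list and the replicates. Filled symbols are summits of rank 8188 or better, open ones weaker, red bars the start of the divergent neighbour, and stars the centre of the DRE. The summits of TH1, Nelf-E and Nelf-A that lie among the strongest peaks fall between the opposed starts.

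Opposed starts were common in the group. A divergent protein-coding start within 500 bp upstream was present at 7 of the 10 genes, against 27.3% of all protein-coding genes. Of these 7, 3 had an IDR promoter summit (Nelf-A, TH1 and Nelf-E), against 37.4% of all 3815 such genes. Of the 3 without one, spt4 had an IDR summit, against 17.3% of the other 10153 genes. Among genes with an IDR promoter summit, 53.1% shared their strongest with another gene's start, as did 3 of the 4 genes here. When each summit was given to its nearest start only, TH1 and spt4 kept one (under that rule 17.6% of all protein-coding genes had one), and those of Nelf-E and Nelf-A went to RpL14 and CG3337. A divergent start did not come with a summit at Spt5, Cdk9 and Larp7, where the opposed starts are 224, 43 and 350 bp apart.

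The promoters were then searched on both strands for 11 sequence motifs, in the 300 bp from 250 bp before to 50 bp after the outermost start. A DRE was found in 6 of the 10 promoters, those of Nelf-A, NELF-B, TH1, Cdk9, CycT and Larp7, against 9.36% of 13968 protein-coding promoters. A match is a description of these letters and does not show that DREF is there. At Nelf-A its centre lay 30.5 bp from the IDR summit and 12.5 and 49.5 bp from the summits of replicates 2 and 3. At TH1 it lay 139.5 bp from the IDR summit and 121.5 to 140.5 bp from those of the replicates, where it stood 244.5 bp upstream of TH1 and thus close to the mei-41 start. At NELF-B it was centred 38.5 bp upstream of the start, 89.5 and 95.5 bp from the strongest summits of replicates 1 and 3. At CycT, Larp7 and Cdk9 it was centred 45.5, 74.5 and 10.5 bp upstream. Of the 6 genes with a DRE, 2 had an IDR promoter summit, and of the 4 without, also 2. Over all protein-coding promoters, 32% of 1307 with a DRE had an IDR promoter summit and 21.9% of 12661 without one.

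CGATA, the core bound by the insulator protein BEAF-32, was in 9 of 10 promoters, against 47.3% of all. Each DRE holds CGATA on both strands, so 6 of these 9 follow from the DRE. GAGAG, the GAGA factor repeat, was in 0 of 10 (29.7% of all), and the pause button (G or T, CG, A or G, A or T, CG), a motif named for its place at paused promoters, was in 0 of 10 (16.8% of all). The initiator letters TCAGT were in 3 (NELF-B, spt4 and Hexim) against 51.5%, and the TATA box letters TATAAA in 2 (Spt5 and Hexim) against 45.8%. A match anywhere in the 300 bp counted. TCAGT began at -247 bp from the start of NELF-B, 19 bp from that of spt4 and -229 bp from that of Hexim (negative upstream). TATAAA began at 26 bp at Hexim, and at -137, -123 and -104 bp on the opposite strand at Spt5. These are letter matches and do not show a working initiator or TATA box. Ohler 7 was in 2 (Spt5 and CycT) against 9.28%, Motif 1 in Spt5 alone against 4.49%, and the E-box CAGCTG in Cdk9 alone against 17.6%. Ohler 6 (2.23%) and the Myc E-box CACGTG (4.2%) were in none. The 100 bp on either side of the IDR summit had a GC content of 44.3% at Nelf-A and 41.8% at Nelf-E, above the upper quartile of 39.3% over 2412 windows around the strongest IDR promoter summits of protein-coding genes. At TH1 and spt4 it was 32.8% and 33.8%, near the median of 33.3%.

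Other genes of transcription elongation were taken from a list of 37 names, of which 36 were found in the annotation and IWS1 was not. Of the 36, 16 (44.4%) had an IDR promoter summit, 22 a pooled one and 19 a summit in all 3 full replicate lists, against the 22.8%, 37.6% and 29.4% of all protein-coding genes given above. The IDR summit was shared with another start in 13 of the 16, against 53.1% of all protein-coding genes with one, and the partners of CycK, Su(Tpl) and Rtf1 were a transposon copy (INE-1), an antisense RNA and a long non-coding RNA. Without replicate 3 the count was 10, where the share of all protein-coding genes was 17.8%, and with nearest starts only it was also 10, where that share was 17.6%.

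bin3, which encodes the enzyme that caps 7SK RNA, ranked 243, 243 and 218 in replicates 1, 2 and 3 (mean 235 ± 14.4, SD, n = 3), 231 bp upstream in the IDR list and shared with no other gene. It ranked ahead of TH1 in all 3 replicates. M1BP and Trl encode DNA-binding factors found at paused promoters, and ranked 478 ± 136 and 823 ± 97.5 (mean ± SD, n = 3). The IDR summit of M1BP was shared with CG8202, and that of Trl with no other gene. Cdk12, a kinase of the polymerase tail, ranked 1032 ± 49.1 and shared its summit with SAK, while its cyclin gene CycK had ranks 4285 and 6786 in replicates 1 and 3 and no promoter summit in replicate 2. The Elongin genes EloB and EloA ranked 1903 ± 479 and 3007 ± 226 (SD, n = 3) and shared summits with Srp14 and Rad60. fs(1)h, the fly BET protein gene, ranked 26868, 4997 and 3548 in the replicates, with the weak summit of replicate 1 at 450 bp downstream. Its IDR summit was shared with mys. M1BP, EloA and fs(1)h had no IDR promoter summit when each summit was given to its nearest start only.

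Of the 14 Integrator genes, for the complex that cuts nascent RNA at paused polymerase, 4 (28.6%) had an IDR promoter summit, near the 22.8% of all protein-coding genes. IntS6 ranked 536 ± 42.8 and IntS11, the endonuclease subunit, 854 ± 286, followed by IntS10 at 2969 ± 1133 and IntS2 at 7539 ± 1837 (mean ± SD, n = 3). All 4 IDR summits were shared: IntS6 with Rtel1, IntS11 with Wdr24, IntS10 with CG32264 and ntc, and IntS2 with beta-Spec. With nearest starts only, IntS6 and IntS10 kept theirs, and IntS11 and IntS2 did not. Of the 14, 5 had no promoter summit in any list, as did 43.8% of all protein-coding genes. Of the 5 Paf1 complex genes 2 had an IDR summit, atms at 3946 ± 1905 and Rtf1 at 8995 ± 3810.4 (mean ± SD, n = 3). That of atms was shared with CG44088. Of the 4 super elongation complex genes 1 had an IDR summit, Su(Tpl), the fly ELL gene, at 8387 ± 3377. TfIIS, for the factor that restarts backtracked polymerase, ranked 4935, 8485 and 10151 in the replicates. Neither Bre1 nor Set2, for histone-modifying enzymes that act during elongation, had an IDR summit. Spt6 had none in the IDR or pooled list either, though it ranked 3296, 5216 and 3525 in replicates 1, 2 and 3. Of 2505 protein-coding genes with a promoter summit among the strongest peaks of all 3 replicates, 2.12% lacked one in the pooled list, and Spt6 was 1 of them.

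**Figure D4:**
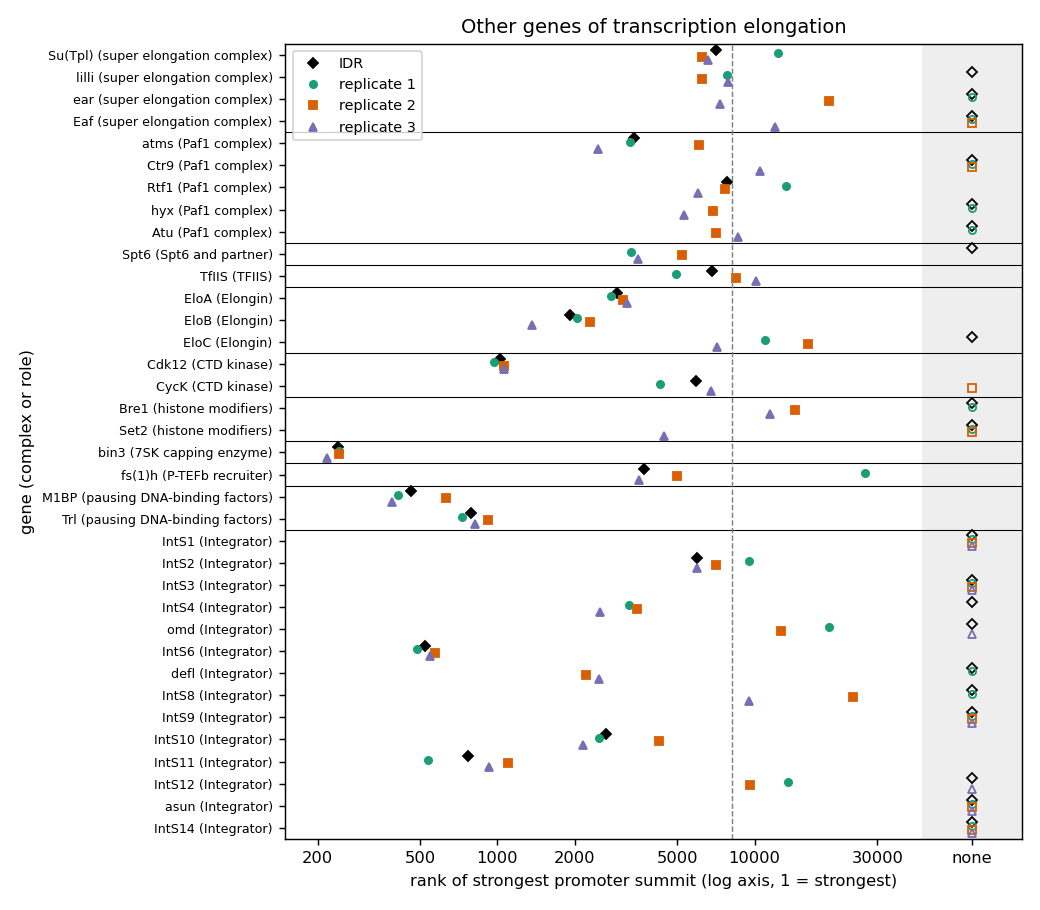
Rank of the strongest promoter summit (log axis, rank 1 strongest) for 36 other elongation genes, grouped by complex, in the IDR list and each replicate. The dashed line is rank 8188, and open symbols in the grey band mark lists with no summit. bin3, M1BP, IntS6, Trl and IntS11 have the lowest mean ranks, from 235 to 854.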

How the data were processed

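ChIP-seq peak lists of GFP-tagged CG7839 from 3 biological replicates of whole embryos were analysed. Each replicate's peaks came from its own alignments and 1 common control, the pooled list from all 3 alignments with that control, and the IDR list from the replicate and pooled lists, all on dm6, per the deposited descriptions of the files. The control itself was not analysed here. Aligner, peak caller and thresholds: not given in the sources used here. Peaks were ranked within each list by the deposited signal value, whose scale is not stated. No count or rank rests on the deposited −log10 q values, which do not vary within the IDR list. A summit offset past its interval's end (2 to 7 per list) was moved to the last base.

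Genes were those of Ensembl release 115 on the main chromosome arms, and sequence was RefSeq Release 6, in whose arms every peak lay. A summit counted for each gene with a transcript start within 500 bp. Ranks are given per replicate, with mean ± SD over 3 replicates. Nothing was tested, since there is 1 group and the members, gene lists and motifs were chosen with earlier results of these data known. Nothing in the labels says more of the replicates than that they are biological, so the SD covers the spread between these samples alone. Genes named were the 10, genes sharing their promoter summits, up to 4 per complex of the other elongation genes by IDR rank, the 7SK genes and the 3 genes nearest to spt4 in rank. Divergent neighbours of the 10 and genes at the nearest summits outside their promoters were named as well. So were genes that share summits with the other elongation genes, and CG1142, near a summit beside snRNA:7SKa. Spt6, IntS4, defl and the elongation genes without an IDR summit were named after their values were seen. The assignment of summits to genes was checked on simulated summits. Python 3.11.15, numpy 2.4.6 and matplotlib 3.10.9 were used.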

Additional observations from a re-analysis of the deposited data

How the results depend on the processing

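The count of 4 genes with an IDR promoter summit was also 4 with promoter windows of 250 and 1000 bp and when any overlap of the peak interval counted. It was 2 among the 4094 strongest IDR peaks, where Nelf-A and spt4 were lost, and 2 with nearest starts only, where Nelf-A and Nelf-E were lost. Requiring a match within 100 bp among the strongest peaks of both other replicates gave 3 to 4 genes when each replicate was left out, and Nelf-A was lost without replicate 2 and without replicate 3. That rule also shortens the list, and the share of all protein-coding genes was 18.6%, 18.2% and 17.8% without replicates 1, 2 and 3, against 22.8%. The pooled count was 4 with both other windows. The 3 genes found in all 3 replicates were also 3 with full lists and with both other windows, 2 with 4094 peaks per replicate, and 3 to 4 when 1 replicate was not required. NELF-B was gained without replicate 2 and Nelf-A without replicate 1. The 3 shared summits stayed at 3 with protein-coding or divergent neighbours only. The 16 other elongation genes were 13 and 19 with windows of 250 and 1000 bp, 10 with nearest starts only, and 10 to 14 when a replicate was left out. For the other windows, interval overlap and the 4094 strongest peaks, no share of all protein-coding genes is given here. Those counts show only which genes stayed, and not how they stand against all genes. No paired analysis was possible because the labels hold 1 group. With read depth unknown, a missing summit says only that no peak was listed there.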

Other observations

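Some promoters of these genes held a pair of summits about 200 bp apart in 1 replicate list. The spacing was 199 bp at NELF-B in replicates 1 and 3, 203 and 202 bp at Nelf-A in replicates 2 and 3, 200 bp at Nelf-E and 212 bp at Hexim in replicate 3. TH1, spt4 and CycT had no such pair within their promoters. Of the 22 promoter summits of the 10 genes in the replicate lists, 12 had a partner 190 to 215 bp away. In the replicate lists 15.6%, 19.6% and 17.8% of all summits had another summit of the same list 190 to 215 bp away, against 0.0667%, 0.187% and 0.1% at 390 to 415 bp. Those shares cover summits wherever they lie, and not promoter summits alone, so they are no like measure for the 12 of 22. The commonest interval width was 404, 404 and 410 bp, held by 84.7%, 83.7% and 88.3% of peaks in replicates 1, 2 and 3. Whether the second summits near NELF-B, Nelf-A, Nelf-E and Hexim are separate places was not tested.

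Several elongation genes had strong replicate summits that the pooled list ranked far lower or did not hold. This is not particular to them. Of 3415 protein-coding genes with a promoter summit among the strongest peaks of 2 or more replicates, 10.1% had none in the pooled list. IntS4 ranked 3259, 3506 and 2503 in replicates 1, 2 and 3, and its strongest pooled promoter summit ranked 29894. The Integrator gene defl, at 2209 and 2485 in replicates 2 and 3, had no promoter summit in the pooled list or in replicate 1. The same held for the Paf1 complex gene hyx, at 6884 and 5340 in replicates 2 and 3. IntS4, defl, hyx, Spt6 and NELF-B are places where the IDR list alone would give no summit.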
